A study of Mus musculus with 6 samples.

Results

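The genes described here are 36 genes of the mTORC1 and AMPK pathways and of nutrient sensing, taken from a fixed list of symbols. They cover the mTOR complexes, the TSC and Rheb switch, lysosomal amino acid sensing, AMPK with its upstream kinase, AKT, and the substrates of mTORC1. The exon array reports signals for transcript clusters, sets of probes that cover 1 transcribed stretch, and a gene was read only from a cluster annotated with its symbol and no other. This gave values for 31 of the 36 genes, among 19699 genes tested in all.

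The mutant mice were Nestin-Cre;Atg7f/f conditional knockouts (cKO), and the controls were Nestin-Cre;Atg7+/+ mice, which carry the same Cre, so that an effect of Cre itself is shared by both groups. Both are of C57BL/6 background and were taken at postnatal day 16, with 3 Affymetrix mouse exon arrays per genotype. Nestin-Cre acts in neural precursors and so in the neurons and glia they give rise to, while microglia and vessels keep Atg7. The sample labels name the driver NexCre and the tissue brain, whereas the methods name Nestin-Cre and the cerebral cortex. The cells given here as losing or keeping Atg7 are those for the driver of the methods, and which driver was used was not tested. ATG7 is the enzyme that starts both conjugation reactions of autophagosome formation.

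mTORC1 is a kinase complex at the lysosome surface that promotes translation and growth and restrains autophagy when amino acids and growth factors are plentiful. Amino acids act through the Rag GTPases and their anchor Ragulator, growth factors act through AKT, TSC and Rheb, and a lack of energy acts through AMPK, which opposes mTORC1 and favours autophagy. Both kinases act on the ULK1 complex, upstream of ATG7, and both are themselves controlled mainly by phosphorylation and localisation, which an array of mRNA does not measure.

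The signal of the cluster of Atg7, which the annotation pairs with a second symbol, Camsap1, was 6.12, 6.03 and 5.90 on the log2 scale in the cKO arrays, against 6.58, 6.54 and 6.39 in the control arrays. Every cKO array lay below every control array, with a difference of -0.48 (standard error 0.092, unadjusted p = 0.00125, adjusted p = 0.9995 from limma). Of the 20 clusters nearest to it by number, 19 were on chromosome 6, that of Atg7, while Camsap1 is on chromosome 2. The arrays numbered 1 stood apart in both groups on the first principal component, which held 36.02% of the variance, with scores of -26.4 for cKO replicate 1 and -13.9 for control replicate 1, against 2.51 to 15.96 for the other 4 arrays. Xist, the RNA that coats the silenced X chromosome in female cells, reached 9.51 on the log2 scale in cKO replicate 1, while the remaining 5 arrays ranged over 3.48 to 4.15. The Y-linked genes went the other way, with Eif2s3y at 2.90, Kdm5d at 3.96 and Uty at 3.22 in cKO replicate 1, against at least 5.50, 5.92 and 5.26 in each of the other arrays. By these genes cKO replicate 1 was from a female and the rest were from males, while sex is not among the labels. Of the markers of other cell types and regions, the 4 measured striatal genes all had lower means in the cKO arrays, with a median difference of -0.72, and so had the 4 measured genes of oligodendrocytes, at -0.30. The summed linear signal of the striatal markers was 558, 302 and 547 in cKO replicates 1 to 3 and 1204, 677 and 546 in control replicates 1 to 3. The genotypes overlapped, with control replicate 1 the highest and cKO replicate 2 the lowest. For the oligodendrocyte markers the sum was 1267 to 1784 in the cKO arrays and 1572 to 2017 in the control arrays. The 5 astrocyte markers all had higher means in the cKO arrays, with summed signals of 1199 to 1205 in the cKO arrays and 1074 to 1151 in the control arrays. No listed marker with a cluster of its own had a log2 signal under 4.56 on any array. The other marker lists held both signs. Their median differences were -0.09 for neurons, 0.06 for microglia, 0.03 for endothelium and -0.01 for choroid plexus and blood. Ttr, of the last list, was at 9.88, 7.03 and 5.58 in the cKO arrays and at 5.38, 9.62 and 7.35 in the control arrays. The part of the markers in the differences below was not tested. In bulk tissue fewer cells of a type, less of a region in the sample and less RNA per cell cannot be told apart.

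None of the 31 measured genes passed an adjusted p of 0.05 from limma, and over all genes 0% passed. Of the 31, 15 had a higher and 16 a lower mean in the cKO arrays, with a median difference of -0.0029, beside -0.0059 over all genes tested. The differences lay between -0.21 for Lamtor4 and 0.36 for Akt2, and 26 of the 31 were under 0.1 in size. At an unadjusted p under 0.05 there was 1 gene, Akt2, which is 3.23% of the members, where 3.95% of all genes reached that limit. It is uncertain that the cluster tested for Akt2 measures that gene, as described with the AKT genes, and without such clusters the count was 0. The 2 genotypes did not overlap for 4 members, Akt2, Deptor and Depdc5 with higher and Prkag2 with lower signals in every cKO array. That is 12.9% of the members, beside 8.39% of all genes. These shares are those of 31 genes, of which 1 more or less moves the share by 3.23 percentage points.

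**Figure D1:**
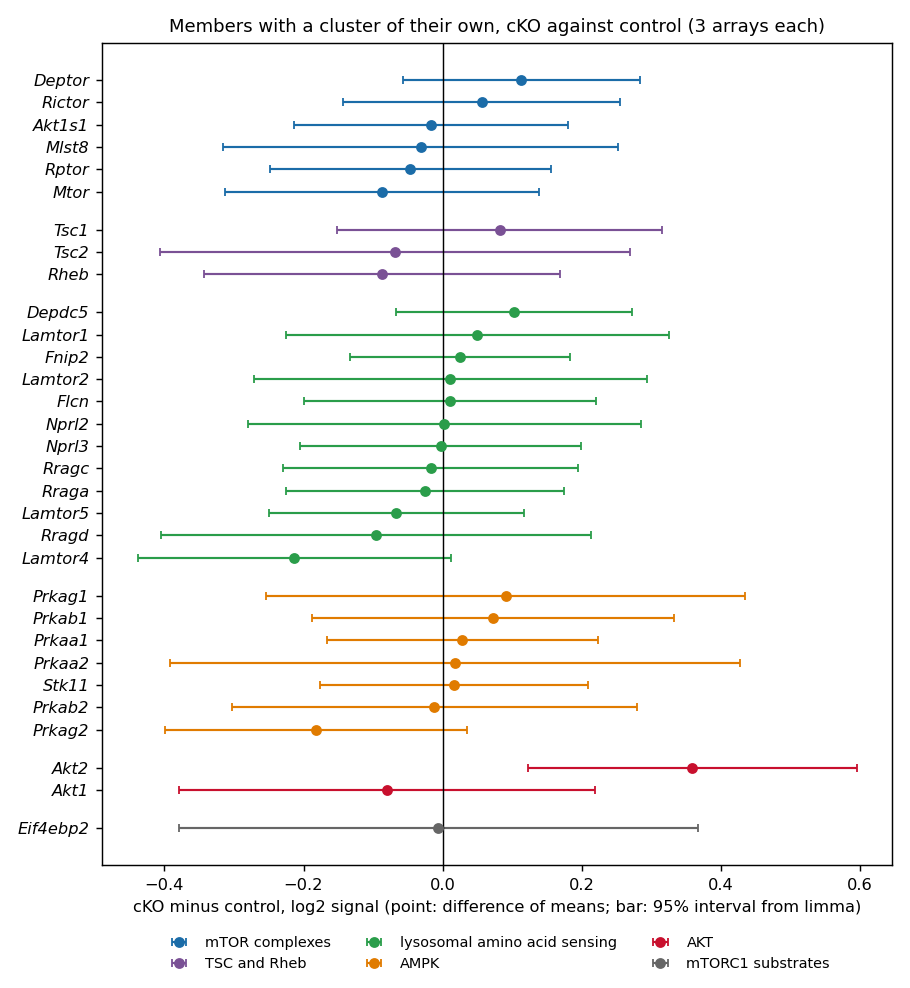
Difference between the cKO and the control arrays for the 31 measured genes, by role, on the log2 scale. Points are differences of means and bars the 95% intervals from limma, with 3 arrays per genotype. Akt2, at 0.36, is the 1 gene whose interval leaves out 0, and the other 30 intervals include it.

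The precision of 3 arrays per genotype sets how far these small differences can be read. The 95% interval of a difference had a half-width of 0.16 for Fnip2, the narrowest, and of 0.41 for Prkaa2, the widest, with a median of 0.23. For 30 of the 31 genes the whole interval lay within 0.5 on the log2 scale in either direction, and for 9 within 0.25. The exception to the wider limit was Akt2.

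The 6 genes of the mTOR complexes were all measured, 2 with higher and 4 with lower means in the cKO arrays and a median difference of -0.02. Mtor, the kinase shared by both complexes, had log2 signals of 7.94, 7.78 and 7.65 in the cKO arrays, against 7.95, 7.84 and 7.85 in the control arrays. The ranges overlapped through cKO replicate 1, and the difference was -0.09 (95% interval -0.31 to 0.14). The difference was -0.16 without cKO replicate 1, when the remaining cKO arrays lay below every control array, and -0.02 without cKO replicate 3. Rptor, the scaffold that brings substrates to mTORC1, differed by -0.05. Rictor, the subunit that defines mTORC2, differed by 0.06. Mlst8, which belongs to both complexes, and Akt1s1, which encodes the mTORC1 inhibitor PRAS40, differed by -0.03 and -0.02.

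Deptor encodes an inhibitor that binds mTOR in both complexes. Its log2 signal was 6.25, 6.18 and 6.27 in the cKO arrays and 6.17, 6.10 and 6.08 in the control arrays. The genotypes did not overlap, though the lowest cKO and the highest control value were close, at 6.18 and 6.17. The difference of 0.11 (standard error 0.072) had an unadjusted p = 0.160 and an adjusted p = 0.9995 from limma.

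The TSC complex switches off the GTPase Rheb, which activates mTORC1 directly. Rheb had log2 signals of 5.93, 6.26 and 6.16 in the cKO arrays and 6.26, 6.09 and 6.26 in the control arrays. The low value was that of cKO replicate 1, and the difference of -0.09 (95% interval -0.34 to 0.17) was 0.0056 without that array. Tsc1, which stabilises the complex, differed by 0.08, and Tsc2, its GTPase-activating subunit, by -0.07. Both had their highest cKO signal, 7.02 and 8.32, in cKO replicate 1.

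Of 15 genes of lysosomal amino acid sensing, 12 had a cluster of their own, 6 with higher and 6 with lower means in the cKO arrays, and their median difference was -0.00014. Lamtor4, a subunit of the Ragulator complex that holds the Rag GTPases on the lysosome, had the largest difference of this group. Its log2 signal was 7.34, 7.46 and 7.61 in the cKO arrays, against 7.73, 7.59 and 7.73 in the control arrays. cKO replicate 3 lay just above control replicate 2, and the other cKO arrays lay below all control arrays. The difference was -0.21 (95% interval -0.44 to 0.01), with an unadjusted p = 0.0597 and an adjusted p = 0.9995 from limma. It was -0.28 with an unadjusted p = 0.0251 without cKO replicate 3 and -0.15 with an unadjusted p = 0.145 without cKO replicate 1. In the other 4 fits with 1 array left out the unadjusted p was between 0.0576 and 0.156, and without both arrays numbered 1 the difference was -0.13. Other Ragulator subunits lay closer to 0, with Lamtor5 at -0.07, Lamtor2 at 0.01 and Lamtor1, which anchors the complex in the membrane, at 0.05. The Rag GTPases work as pairs of RagA or RagB with RagC or RagD. Rraga differed by -0.03, Rragc by -0.02 and Rragd by -0.10. The value of Rragd came mostly from cKO replicate 1, at 6.66, beside 7.08 and 7.09 in the other cKO arrays and 6.96, 7.05 and 7.11 in the control arrays.

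Lysosomal genes, and some genes of this group, are known targets of TFEB and TFE3, factors that mTORC1 holds in the cytoplasm and that bind the E-box CACGTG. The motif is its own reverse complement, and it is also the site of other factors. In RefSeq sequences of GRCm38.p6, 33 of the 36 genes had at least 1 promoter, 39 in all. CACGTG stood within the 250 bases before the start in 6 of these 39 promoters (15.4%), those of Rheb, Rragb, Rragc, Lamtor1, Lamtor4 and Fnip1, while it stood in 6.02% of all 32851 promoters. Lamtor4 and Rragb held it at 2 places each. The stretches around the motif, in capitals, are shown for the 4 of these genes that were measured, so that the letters can be set beside the expression values:
Lamtor4, chr5:138255342-138255403, plus strand: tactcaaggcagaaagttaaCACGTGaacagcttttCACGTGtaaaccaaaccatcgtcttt
Lamtor1, chr7:101905749-101905794, plus strand: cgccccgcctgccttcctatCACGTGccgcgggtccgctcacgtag
Rragc, chr4:123917301-123917346, plus strand: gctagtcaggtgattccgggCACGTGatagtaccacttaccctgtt
Rheb, chr5:24842432-24842477, minus strand: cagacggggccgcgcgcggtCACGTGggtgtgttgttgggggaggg
The 4 genes differed by -0.21, 0.05, -0.02 and -0.09, with both signs among them and none past the test. Among the factors, Tfeb differed by -0.07, Tfe3 by -0.03 and the related Mitf by -0.12 (unadjusted p = 0.133 from limma). The genotypes did not overlap for Mitf, though the highest cKO and the lowest control value were close, at 6.08 and 6.09. A match is a description of letters and not of binding.

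GATOR1, made of the products of Depdc5, Nprl2 and Nprl3, switches the Rag GTPases off when amino acids are low. Depdc5 had log2 signals of 7.43, 7.56 and 7.46 in the cKO arrays and 7.38, 7.36 and 7.40 in the control arrays. The genotypes did not overlap, and the difference of 0.10 (95% interval -0.07 to 0.27) had an unadjusted p = 0.194 from limma. Without cKO replicate 2, the highest of the 6 arrays, it was 0.07. Its partners Nprl2 and Nprl3 differed by 0.0026 and -0.0029. Flcn and Fnip2, whose products form the folliculin complex that acts on RagC and RagD, differed by 0.01 and 0.02. Fnip2 was among the most even genes, between 6.17 and 6.19 in the cKO arrays and between 6.12 and 6.17 in the control arrays.

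AMPK is a trimer of a catalytic alpha, a scaffold beta and a nucleotide-binding gamma subunit, and LKB1, the product of Stk11, is its main upstream kinase. All 7 genes of this group were measured, 5 with higher and 2 with lower means in the cKO arrays, and their median difference was 0.02. Prkag2, a gamma subunit gene, had log2 signals of 6.68, 6.57 and 6.42 in the cKO arrays and 6.82, 6.71 and 6.68 in the control arrays. Every cKO array lay below every control array, but cKO replicate 1 and control replicate 3 were both at 6.68 to 2 decimals. The difference was -0.18 (95% interval -0.40 to 0.03, unadjusted p = 0.0872 from limma). Without cKO replicate 1 it was -0.24 with an unadjusted p = 0.0305, and without cKO replicate 3 it was -0.12. Prkag1, the other gamma subunit gene of this group, differed by 0.09, with 8.14 in cKO replicate 1 and 7.58 to 7.74 in the other 5 arrays. Prkag3, a gamma subunit gene counted with the other pathway genes below, differed by -0.06, with overlap.

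The catalytic subunit genes Prkaa1 and Prkaa2 differed by 0.03 and 0.02. Prkaa2 was the least even of the 31 genes, with 7.39, 7.97 and 7.86 in the cKO arrays and 7.50, 7.79 and 7.88 in the control arrays, and the array numbered 1 was the lowest in each genotype. Its 95% interval ran from -0.39 to 0.43. The beta subunit genes Prkab1 and Prkab2 differed by 0.07 and -0.01, and Stk11 by 0.02.

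**Figure D2:**
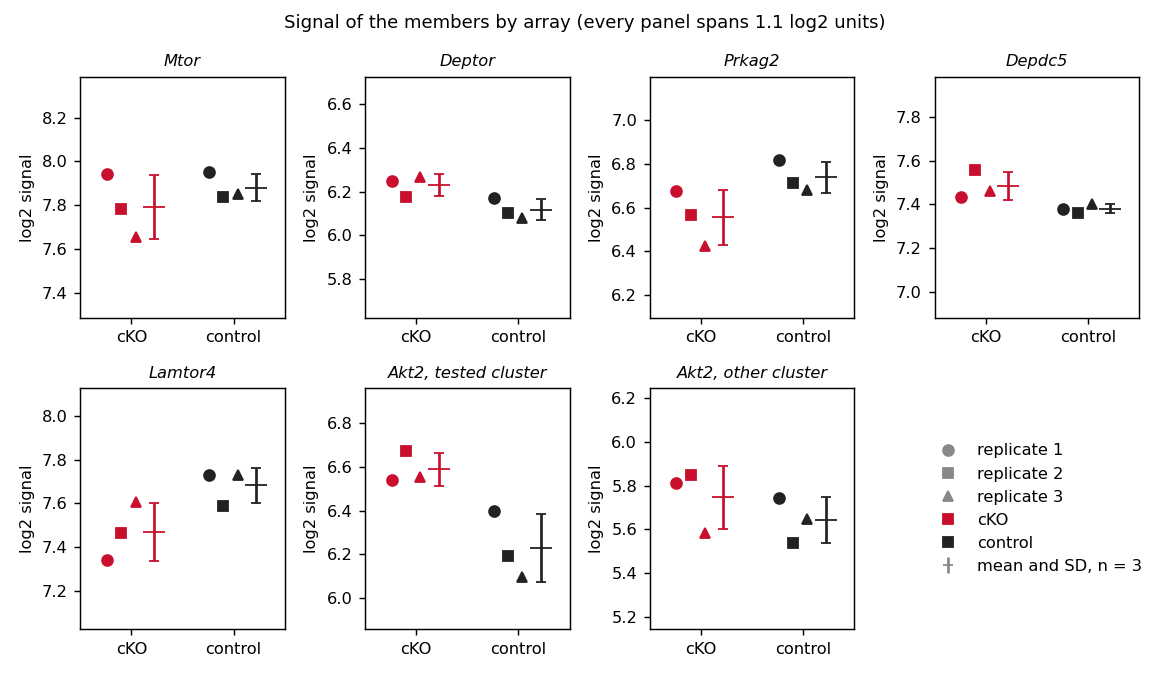
Log2 signal of Mtor, of the members with the largest differences or without overlap, and of both clusters of Akt2, in each cKO array (left) and control array (right), with means and SD (n = 3). The tested cluster of Akt2 separates the genotypes, and the other cluster, between 5.58 and 5.85 in the cKO arrays and between 5.54 and 5.75 in the control arrays, does not.

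AKT kinases carry growth factor signals to TSC and to PRAS40. The tested cluster of Akt2 had log2 signals of 6.54, 6.67 and 6.55 in the cKO arrays, against 6.40, 6.19 and 6.10 in the control arrays. All cKO arrays lay above all control arrays, with means of 6.59 ± 0.073 in cKO and 6.23 ± 0.15 in control (SD, n = 3 each). The difference of 0.36 (standard error 0.10), a fold change of 1.28, had an unadjusted p = 0.00893 and an adjusted p = 0.9995 from limma. It lay between 0.29 and 0.44 with any 1 array left out. Akt1 differed by -0.08, with 8.24, 8.01 and 7.75 in the cKO arrays and 8.06 to 8.11 in the control arrays.

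The higher value of Akt2 belonged to 1 of the 2 clusters annotated with it, and by its place on the array it is uncertain that this cluster measures Akt2. The other had log2 signals of 5.81, 5.85 and 5.58 in the cKO arrays and 5.75, 5.54 and 5.65 in the control arrays, which overlapped, and a difference of 0.10 (95% interval -0.14 to 0.35, unadjusted p = 0.344 from limma). Cluster numbers on this array follow the chromosomes, and 617 of the 22245 clusters of known chromosome (2.77%) lie among clusters of another. Akt2 is on chromosome 7 in RefSeq, and the other cluster lay among clusters of chromosome 7, with 20 of the 20 nearest by number there. Of the 20 nearest to the tested cluster, 19 were on chromosome 11. The 30 other measured genes were tested on a cluster numbered among its own chromosome. With such clusters left out, Akt2 was read from its other cluster, no member reached an unadjusted p under 0.05, and 3 members (9.68%) were without overlap, beside 8.41% of all genes.

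Of the mTORC1 substrates, Eif4ebp2, which encodes the main translational repressor of this family in the brain, was measured. Its log2 signal was 7.44, 6.97 and 6.94 in the cKO arrays and 7.29, 7.13 and 6.95 in the control arrays. The array numbered 1 was the highest in both genotypes, and the difference was -0.0065 (95% interval -0.38 to 0.37). Rps6kb1, the gene of S6 kinase 1, is not listed by the annotation used here. The other 4 unmeasured genes, Rragb, Lamtor3, Fnip1 and Eif4ebp1, are listed only on clusters that carry a second symbol. By the annotation alone their values cannot be given to 1 gene. The cluster of Eif4ebp1 and Ccnq was at 6.36, 6.38 and 6.38 in the cKO arrays and at 6.00, 6.23 and 6.15 in the control arrays, without overlap. It differed by 0.25 (standard error 0.084, unadjusted p = 0.0219, adjusted p = 0.9995 from limma), and all of its 20 nearest clusters were on chromosome 8, that of Eif4ebp1, while Ccnq is on chromosome 11. The clusters shared by Fnip1, Rragb and Lamtor3 overlapped between genotypes, with differences of 0.11, 0.07 and, for the pair of clusters listed for Lamtor3, -0.05 and -0.22. The 20 clusters nearest to the first of this pair were on chromosome 3, that of Lamtor3. The 20 nearest to the second were on chromosome 7.

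Other clusters annotated with a measured gene alone gave differences of various sizes. Stk11 had others at 0.36 and 0.12, Depdc5 at 0.19, Prkag2 at -0.15, Tsc2 at 0.0047 and Eif4ebp2 at -0.0041, all with overlap and none at an unadjusted p under 0.05. Lamtor1 had others at 0.07 and 0.48, of which the second overlapped between genotypes at an unadjusted p = 0.0303 from limma, and its 20 nearest clusters were on chromosome 4, while Lamtor1 is on chromosome 7.

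**Figure D3:**
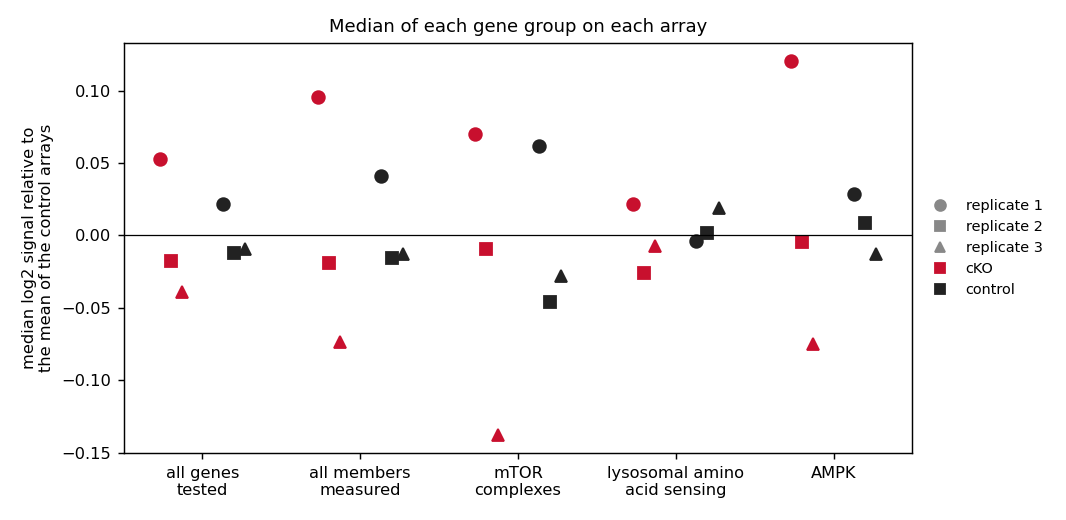
Median over each group of genes on each array, relative to the mean of the control arrays of each gene, on the log2 scale, for the cKO arrays (left of each pair) and the control arrays. Over the measured members it was 0.10, -0.02 and -0.07 in cKO replicates 1 to 3, and the spread among cKO arrays was wider than the distance between the genotypes.

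The arrays of the cKO group differed more from one another than the genotypes did. The median over the 31 genes, relative to the mean of the control arrays, was 0.10, -0.02 and -0.07 in cKO replicates 1 to 3 and 0.04, -0.02 and -0.01 in control replicates 1 to 3. Over all genes tested it was 0.05, -0.02 and -0.04 in the cKO arrays and 0.02, -0.01 and -0.01 in the control arrays, in the same order of arrays. Of the 31 genes, 22, 14 and 9 lay above their control mean in cKO replicates 1 to 3. Without cKO replicate 1, 11 genes had higher and 20 lower means in the cKO arrays, with a median difference of -0.05, beside -0.03 over all genes. The genotypes then did not overlap for 10 members (32.3%), beside 26.9% of all genes.

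Beyond these genes, 54 of 61 other genes of the pathway were measured, none of which passed an adjusted p of 0.05 from limma. They had a median difference of 0.02, 31 with higher and 23 with lower means in the cKO arrays. An unadjusted p under 0.05 from limma was reached by 3 (5.56%), beside 3.95% of all genes. The genotypes did not overlap for 4 (7.41%), Camkk2, Sesn1, Sgk1 and Mitf, beside 8.39% of all genes. Camkk2, which encodes a calcium-activated kinase upstream of AMPK, had log2 signals of 7.31, 7.41 and 7.48 in the cKO arrays and 7.81, 7.61 and 7.80 in the control arrays, without overlap. Its difference was -0.34 (standard error 0.089, unadjusted p = 0.00680, adjusted p = 0.9995 from limma). Sesn1, one of the sestrin genes whose products restrain mTORC1 when leucine is low, was at 7.21, 7.17 and 7.11 in the cKO arrays and at 6.88, 6.92 and 6.94 in the control arrays. Each genotype was tight and apart from the other, with a difference of 0.25 (standard error 0.070, unadjusted p = 0.00920, adjusted p = 0.9995 from limma). Its relatives Sesn2 and Sesn3 differed by 0.01 and 0.12, with overlap. Sgk1, a substrate of mTORC2 that glucocorticoids also induce, was at 7.02, 6.90 and 6.87 in the cKO arrays and at 6.73, 6.75 and 6.69 in the control arrays, and differed by 0.20 (unadjusted p = 0.0309 from limma). With 1 array left out this p was between 0.0340 and 0.0996, under 0.05 only without cKO replicate 3. The 14 measured genes of GATOR2, KICSTOR and the amino acid sensors had a median difference of 0.02, the 8 of TSC, mTORC2 and mTOR assembly one of 0.02, and the 12 of insulin and PI3K input one of 0.03. The 10 other genes of the AMPK pathway had a median of -0.04, with 6 of them lower in the cKO arrays, and the 10 of mTORC1 output and feedback one of -0.0063.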

How the data were processed

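For 6 Affymetrix mouse exon arrays the authors deposited 1 log2 signal per cluster, already summarised. The methods name GeneSpring. The summarisation method, normalization and genome build were not given in the sources used here. A second table, with the authors' own p-values and fold changes, was not used. Of 101175 clusters, the annotation pairs 22773 with 1 symbol, and 22245 were matched to RefSeq (GRCm38.p6) for current symbols and chromosomes. Each gene was represented by its brightest cluster (mean of the 6 arrays), giving 19699 genes, without a filter on dim genes. All 31 measured members also passed a filter that leaves out the lowest 25%. Differences are cKO minus control, tested two-sided by limma's lmFit and eBayes (limma 3.58.1 under R 4.3.3). Adjusted p-values are Benjamini-Hochberg values over every gene tested. Whether each array came from its own animal is not stated. By the sex genes, cKO replicate 1 came from another animal than cKO replicates 2 and 3. The p-values therefore describe variation among arrays, part of which may be technical. An exact test of 3 against 3 allows no p under 0.1. The script was tested on simulated data.

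The members and lists were chosen with earlier results of these data known. Array values are given for Mtor, Atg7, members at an unadjusted p under 0.05 or without overlap, the member with the largest difference in each role, and other pathway genes at an unadjusted p under 0.05. Further genes named with values were chosen after these were seen. Alternatives were quantile normalization, median centring, the filter, a trended and robust prior, no moderation, averaged or other clusters, the replicate number as a block, and leaving out each array. A block for the arrays numbered 1, leaving out both, and leaving out clusters numbered among another chromosome were added after the values were seen.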

Additional observations from a re-analysis of the deposited data

How the results depend on the processing

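No measured gene passed an adjusted p of 0.05 from limma under any of the 16 alternatives fitted, where the lowest was 0.617 (Akt2 without cKO replicate 1), nor 0.1 in the fit reported. The count at an unadjusted p under 0.05 from limma, 1 in the report, was 2 with each array centred on its median (Akt2 and Prkag2), with no moderation of the spread (Akt2 and Deptor), with a block for the arrays numbered 1 (Akt2 and Prkag2) and with the replicate block (Akt2 and Prkag2), 0 without clusters numbered among another chromosome, and 1 to 2 with 1 array left out. As a share, 2 members are 6.45%, beside 4.32% of all genes with centring, 3.98% with no moderation, 6.49% with the block for arrays numbered 1, 5.87% with the replicate block, 7.66% without cKO replicate 1 and 4.21% without cKO replicate 3. The labels do not say whether a replicate number pairs arrays of the 2 genotypes. Deviations of same-numbered arrays correlated at 0.31, 0.037 and 0.17, and cKO replicate 2 correlated better with control replicate 3, at 0.16. Correlations among so few arrays cannot decide whether the arrays are paired. The count of members without overlap, 4 in the report, was 2 with the clusters of a gene averaged (Deptor and Stk11; 6.45%, beside 8.58% of all genes), 12 without both arrays numbered 1 (38.7%, beside 37.7%) and 4 to 10 with 1 array left out. The highest was without cKO replicate 1 (32.3%, beside 26.9%), and there were 7 without cKO replicate 3 (22.6%, beside 17.7%). The count of other pathway genes at an unadjusted p under 0.05, 3 in the report, lay between 2 and 6 with 1 array left out. It was 6 without cKO replicate 1, where 7.66% of all genes reached that limit, beside 3.95% in the report. The median difference of AKT genes was 0.0121 without clusters numbered among another chromosome, and that of lysosomal sensing genes -0.0388 without both arrays numbered 1. With 1 array left out, the median lay between -0.0917 and 0.0529 for TSC and Rheb and between -0.0454 and 0.0318 for lysosomal sensing, between -0.0733 and 0.0421 for the mTOR complexes and between -0.0398 and 0.0634 for AMPK, with both signs in each, and between 0.0927 and 0.210 for AKT. The lowest was without control replicate 2 for TSC and Rheb and without cKO replicate 1 for the others, and the highest was without cKO replicate 3 for all 5. Of the 8 members given in full, 2 changed sign. Eif4ebp2 lay between -0.167 and 0.0810 and Rheb between -0.160 and 0.00562 with 1 array left out, and Rheb was at 0.0349 without both arrays numbered 1. The cause was not tested.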
